A study of Mus musculus with 8 samples.

Results

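Uterus libraries from mice given Korean red ginseng were set against uterus libraries from mice not given it, 2 against 2, out of 8 libraries in the whole series (the other 4 are liver). The side with ginseng holds 1 library labelled KRG and 1 labelled BPA plus KRG. The side without it holds 1 labelled OVX-control, here called control, and 1 labelled BPA. Bisphenol A (BPA) is therefore present in 1 library of each side. All mice were females of the CD-1 stock, ovariectomized at 6 weeks of age and then rested for 1 week, so every group, the control included, lacks ovarian hormones. KRG was given by mouth at 1.2 g/kg/day and BPA by mouth at 200 mg/kg/day, both for 7 days. CD-1 is an outbred stock, so its animals differ in genotype. Each treatment has 1 library, with no label on how many animals went into it, so the spread between the 2 libraries of a side mixes animals, BPA and technical error. The treatments cross BPA with ginseng, and the comparison made here asks how uterus libraries with ginseng differ from those without it, with BPA on both sides.

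Red ginseng is the steamed and dried root of Panax ginseng, and its saponins, the ginsenosides, have been studied as ligands of steroid receptors. BPA, a monomer of polycarbonate plastics, can bind estrogen receptors. The uterus is a muscular tube, with smooth muscle around a stroma that carries a lining epithelium and glands. Without the ovary it shrinks, its epithelium largely stops dividing, and many genes that estrogen induces are lowered.

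The libraries were made by 3' end sequencing (QuantSeq), in which each transcript gives reads near its polyadenylated end, so counts are close to 1 per transcript whatever its length. Totals were 12990417 counts in KRG, 14797515 in BPA plus KRG, 13382974 in control and 13721914 in BPA. Values are CPM, counts brought to a common library size with the trimmed mean of M values. Where 4 CPM values follow a gene, they stand in the order KRG, BPA plus KRG, control and BPA. The Hox gene Hoxa11, a marker of uterine stroma, stood at 80.0, 76.2, 121 and 122 CPM and was at 0 in all liver libraries. Adipocyte genes summed to 19537 CPM in KRG but lay between 6850 and 7688 CPM in the other 3, urothelial genes summed to 201, 11074, 503 and 6069 CPM, and skeletal muscle genes to 121, 2070, 130 and 247 CPM. These sums stand beside several results below.

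Of 9198 genes whose mean reached 10 CPM, 1368 (14.9%) were higher in both libraries with ginseng than in both without it, and 1160 (12.6%) were lower in both. Such genes are called separated below. Their means were at least 2-fold apart in 47 genes on the higher side (0.511%) and in 32 on the lower side (0.348%), as differences of log2(CPM + 1), in which low genes differ by less than in CPM. Scaling by total counts moves the median difference of all genes to -0.07, in place of 0.03, and gives 751 separated genes higher and 2035 lower. The share of higher genes among the separated ones is then 27.0%, in place of 54.1%, so the balance of directions over all genes rests on the scaling. edgeR's quasi-likelihood test with BPA as a second term, adjusted by the Benjamini-Hochberg method, called 0 genes higher and 0 lower, and the smallest adjusted p was 0.238, for Pvalb and Gp2. Without adjustment 402 genes (4.37%) had a p under 0.05. By DESeq2, 13 genes were higher and 10 lower at that threshold, and 19 of them were separated. No exact permutation test of 2 libraries against 2 can go below p = 0.333 (two-sided), so none is given for single genes. The same 0.333 is the share of all 2 against 2 splits that separate a gene with 4 unlike values. Here 27.5% of the tested genes were separated in either direction, which is no more than that share. The words higher and lower below describe these 4 libraries.

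Libraries that differ in BPA lay farther apart than libraries that differ in ginseng. The standard deviation of log2 ratios over all tested genes was 0.48 for KRG over control and 0.45 for BPA plus KRG over BPA, against 0.93 for KRG over BPA plus KRG and 0.61 for control over BPA. The 2 libraries with BPA also had the higher urothelial sums given above, and erythroid markers summed to 1184 CPM in BPA plus KRG and 2949 CPM in BPA, against 5579 CPM in KRG and 6850 CPM in control. The part of other tissue in these distances was not tested. At least 2-fold differences numbered 268 genes higher (2.91%) and 110 lower (1.2%) for KRG over control, and 126 higher (1.37%) and 165 lower (1.79%) for BPA plus KRG over BPA. These pairs share no library. In all, 7 genes were at least 2-fold higher in both pairs (0.0761%) and 16 lower in both (0.174%), while 22 were 2-fold in opposite directions (0.239%).

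**Figure D1:**
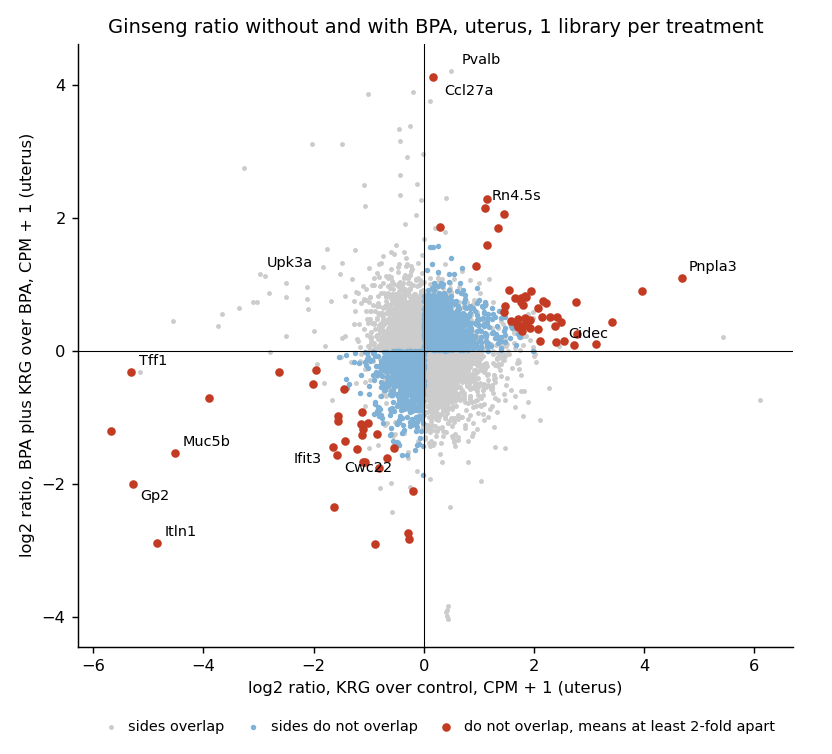
Log2 ratio of KRG over control (horizontal axis) against that of BPA plus KRG over BPA (vertical axis), CPM + 1, for 9198 uterus genes, 1 library per treatment. Blue and red points are the separated genes, 1368 higher and 1160 lower, and the 79 red ones have means at least 2-fold apart. Itln1, Gp2 and Muc5b lie low on both axes, and Pvalb and Ccl27a owe their height to the pair with BPA.

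Fasn and Pnpla3, genes of lipid synthesis, were among the 15 genes with the widest gap above the side without ginseng. Fasn (chr11:120805846-120824547 on mm10), fatty acid synthase, stood at 1362 CPM in KRG and 737 CPM in BPA plus KRG, against 432 CPM in control and 425 CPM in BPA. Both libraries without ginseng gave nearly the same level, and both with it lay above. The difference of means was 1.22 on the log2 scale, or 2.34-fold. edgeR gave a log2 fold change of 1.23 (SE 0.27, adjusted p = 0.998), and DESeq2 an adjusted p of 0.0408. Pnpla3, a lipid droplet protein induced along with fatty acid synthesis, stood at 151 and 61.1 CPM with ginseng, against 4.90 and 28.1 CPM without it. Its sides did not overlap, but its libraries without ginseng themselves differed widely, and the edgeR log2 fold change of 2.94 had an SE of 0.97 (adjusted p = 0.998).

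Of 20 genes listed for fatty acid synthesis, 18 passed the filter on low values. Of these, 8 were separated higher and 0 lower, with a median difference of 0.65, beside 14.9% and 12.6% of all genes and a median of 0.03. The shares of all genes, 14.9% higher and 12.6% lower, are also the background for every list below. The number of members at an adjusted p under 0.05 was 0 by edgeR here and in every list below. Besides Fasn and Pnpla3 the separated members were Thrsp, a nuclear protein that promotes lipogenesis (1585 and 589 CPM with ginseng, against 463 and 353 CPM without), Agpat2, an acyltransferase of triglyceride assembly (137 and 42.4 CPM against 35.2 and 30.6 CPM), Me1, Dgat2, Acly and Dgat1. Acly, which makes cytosolic acetyl-CoA, stood at 141 and 128 CPM with ginseng and 85.0 and 90.1 CPM without. Scd1, the stearoyl-CoA desaturase, overlapped, with 2732 CPM in KRG, 536 CPM in BPA plus KRG, 965 CPM in control and 503 CPM in BPA. Srebf1, the transcription factor that drives this pathway, also overlapped, at 21.3 and 50.9 CPM with ginseng and 21.4 and 34.2 CPM without. The list median was 0.98 for KRG over control and 0.37 for BPA plus KRG over BPA.

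Genes of fat cells were also higher, mostly in the KRG library. Of 18 adipocyte markers, 16 passed the filter, with 9 separated higher (56.25%), 1 lower (6.25%) and a median difference of 0.79. Plin1, the coat protein of large lipid droplets, stood at 209 and 82.0 CPM with ginseng and 48.6 and 52.3 CPM without. Cidec, which enlarges those droplets, stood at 1236 and 255 CPM against 218 and 188 CPM, and the hormone leptin, Lep, at 45.6 and 15.8 CPM against 12.3 and 9.49 CPM. Adipoq, the gene of the fat cell hormone adiponectin, overlapped, at 1559 and 415 CPM with ginseng and 417 and 283 CPM without. In bulk tissue, more cells of a type and more RNA per cell cannot be told apart. The list median was 1.61 for KRG over control but 0.21 for BPA plus KRG over BPA, and 0.20 with the KRG library left out, when 9 members lay above both libraries without ginseng and 4 below. None of the 18 markers was at 0 in any library. Without the KRG library the fatty acid synthesis list had 13 of 18 members higher and 2 lower, with a median of 0.42, beside 3598 genes higher and 3382 lower of 9198. The part of fat cells in the synthesis genes was not tested.

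Several of the other genes on the higher side are known from fat cells too. Cd36, which takes up fatty acids, stood at 232 and 109 CPM with ginseng, against 59.6 and 57.8 CPM without it (edgeR log2 fold change 1.44, SE 0.31, adjusted p = 0.998). DESeq2 gave it an adjusted p of 0.0223. Gpd1, which makes the glycerol backbone of triglycerides, stood at 470 CPM in KRG and 213 CPM in BPA plus KRG, against 131 CPM in control and 119 CPM in BPA. Its libraries without ginseng lay close together and below both others. Tshr, the thyrotropin receptor, stood at 25.9 and 9.18 CPM with ginseng and 4.75 and 5.20 CPM without. Lpl, which releases fatty acids from lipoproteins and was chosen after its values were seen, stood at 3652 and 1021 CPM against 826 and 716 CPM. Cidea went the other way. This lipid droplet protein, known from brown fat and a relative of Cidec, stood at 24.1 and 29.8 CPM with ginseng, against 52.7 and 68.5 CPM without it, and was the 1 adipocyte marker separated lower.

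Many genes of mitochondria and of fuel use were higher, by small amounts. Of 69 measured nuclear subunits of oxidative phosphorylation, 32 were separated higher (46.4%) and 1 lower (1.45%), beside 14.9% and 12.6% of all genes. The median difference was 0.23 (with total count scaling 27 higher and 2 lower, median 0.12). Ndufb7, a subunit of complex I, stood at 155 and 133 CPM with ginseng, against 101 and 89.0 CPM without, and Ndufs6 at 233 and 121 CPM against 106 and 109 CPM. The pair medians were 0.36 for KRG over control and 0.11 for BPA plus KRG over BPA. Of 23 measured genes of fatty acid oxidation, 12 were separated higher and 1, Eci2, lower (median 0.26, with 8 higher and 1 lower under total count scaling). Etfb, which passes electrons from acyl-CoA dehydrogenases towards the respiratory chain, stood at 439.6 and 353 CPM with ginseng, against 252 and 282 CPM without. The oxidative phosphorylation list and that of cytosolic ribosomal proteins were both listed to follow sample quality, and the part of quality in their counts was not tested. Ribosomal proteins had 1 of 75 separated higher and 3 lower (median -0.03).

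Some enzymes that supply NADPH, and neighbours in the pathway, were among the separated NRF2 targets. Of 24 measured targets, 8 were separated higher (33.3%) and 0 lower, beside 14.9% and 12.6% of all genes. The median over all 4 libraries was 0.28, with 6 higher and 0 lower under total count scaling. The median was 0.63 with KRG left out (19 higher, 3 lower), 0.07 with BPA plus KRG left out (10 higher, 5 lower) and 0.09 with control left out (10 higher, 1 lower). Taldo1 and Tkt, the carbon-shuffling enzymes of the pentose phosphate pathway, stood at 466 and 382 CPM and at 505 and 418 CPM with ginseng, against 260 and 244 CPM and 283 and 262 CPM without. Pgd, which reduces NADP in that pathway, stood at 444 and 484 CPM against 264 and 334 CPM. G6pdx, of the same pathway, overlapped, at 19.6 and 28.6 CPM with ginseng and 13.7 and 21.2 CPM without. Hmox1, heme oxygenase, stood at 10.7 and 20.6 CPM against 8.77 and 8.45 CPM. Nqo1, the quinone reductase often used to read out NRF2, overlapped, at 5.43 CPM in KRG, 58.1 CPM in BPA plus KRG, 3.58 CPM in control and 31.0 CPM in BPA. Aldoa, an enzyme of glycolysis, stood at 441 and 310 CPM with ginseng and 187 and 198 CPM without. Of 21 measured genes of glycolysis and hypoxia, 5 were separated higher (23.8%) and 0 lower (median 0.14). With total count scaling 5 were higher and 3 lower.

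**Figure D2:**
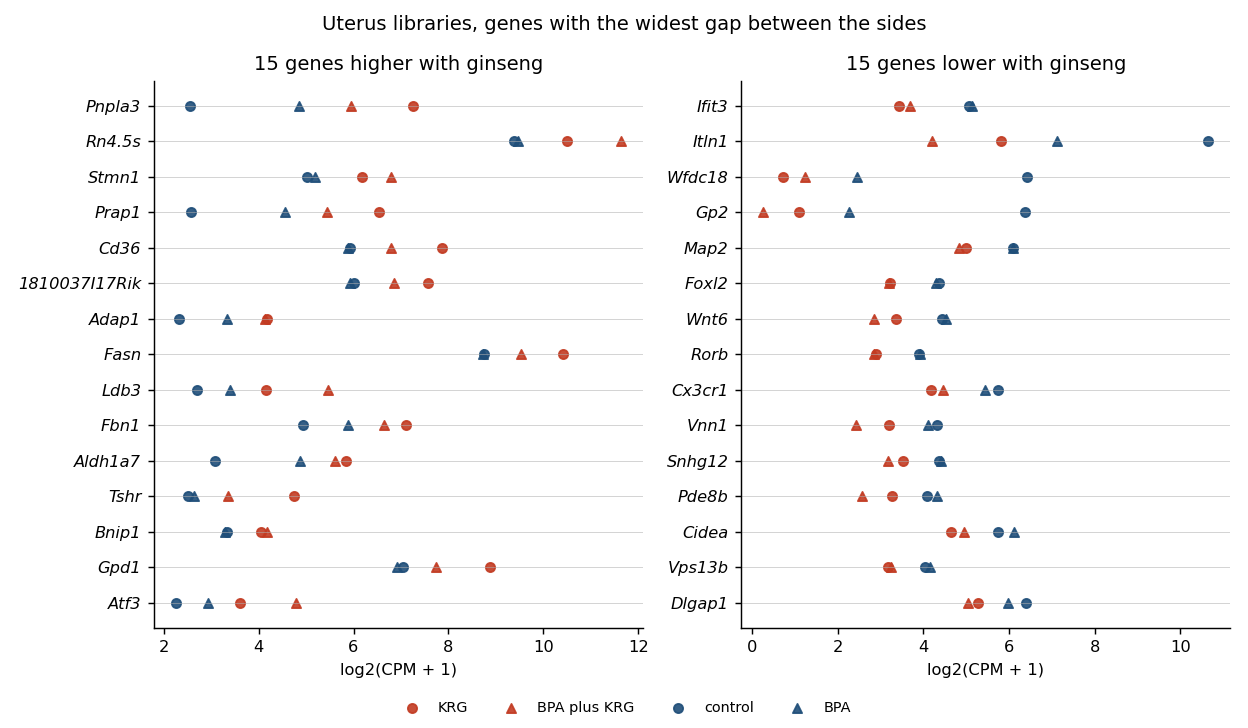
The 15 genes higher and the 15 lower with ginseng that have the widest gap between the sides, as log2(CPM + 1) in each uterus library. Red marks are the libraries with ginseng and blue marks those without it, circles without BPA and triangles with it. The gaps run from 0.68 to 1.10 on the higher side and from 0.70 to 1.38 on the lower side, and Fasn, Cd36, Map2, Foxl2 and Ifit3 have nearly equal libraries without ginseng.

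Other genes with a wide gap on the higher side have varied known roles. Stmn1 (chr4:134468320-134473843), stathmin, which takes microtubules apart, stood at 71.2 and 109 CPM with ginseng, against 31.4 and 35.7 CPM without it. Its edgeR log2 fold change was 1.40 (SE 0.22, adjusted p = 0.87), and its DESeq2 adjusted p was 0.0186. Of the cell cycle list, which holds it, 3 of 26 measured members (Stmn1, Ccnd1 and Tyms) were separated higher and 3, Rrm1 among them, lower. That is 11.5% each way, beside 14.9% and 12.6% of all genes. Most members leaned down, as 23 of 26 had lower means with ginseng, with a median of -0.27. Of all genes, 54.7% had higher means with ginseng. In both pairs 15 members were lower and 3 higher, beside 2050 lower and 2500 higher of all 9198 tested genes. Fbn1, fibrillin of elastic microfibrils, stood at 136 and 98.9 CPM with ginseng and 29.6 and 58.3 CPM without. Atf3, a transcription factor of the stress response, stood at 11.3 and 26.6 CPM against 3.80 and 6.65 CPM. Ldb3, a protein of the muscle Z-disc, stood at 16.8 and 43.0 CPM against 5.48 and 9.49 CPM. It is highest in the library that also holds the most skeletal muscle RNA, and the part of that tissue was not tested. All 14 measured skeletal muscle markers had means above those without ginseng, but 0 were separated. Their median was -0.22 for KRG over control and 3.14 for BPA plus KRG over BPA. Pvalb, 1 of the 14, stood at 0.411 and 84.1 CPM with ginseng and 0 and 3.60 CPM without. It passed the filter through BPA plus KRG alone, so the shared direction of these markers is partly set by the filter and supports nothing. Rn4.5s, a small repeated RNA whose copies may share reads, stood at 1440.2 and 3167 CPM with ginseng and 669 and 710 CPM without.

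Smooth muscle and matrix genes gave a mixed picture. Of 20 smooth muscle markers, 6 were separated higher (30%) and 2 lower (10%), beside 14.9% and 12.6% of all genes (median 0.25). With total count scaling 2 were higher and 2 lower. Acta2, smooth muscle actin, stood at 2142 and 1609 CPM with ginseng and 1339 and 1312 CPM without. Myocd, the coactivator that switches smooth muscle genes on, was separated lower, at 31.0 and 24.6 CPM against 36.6 and 38.7 CPM. Col1a1, the main fibrillar collagen, overlapped, at 671 and 623 CPM with ginseng and 268 and 668 CPM without. Of 44 matrix genes, 5 were separated higher (11.4%) and 3 lower (6.82%), both under the shares of all genes (median 0.16). The matrix median was 0.69 for KRG over control and -0.36 for BPA plus KRG over BPA. It was -0.12 with KRG left out (7 higher, 17 lower) and -0.12 with control left out (5 higher, 20 lower).

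Of the measured interferon-stimulated genes, 18 of 24 were lower in both pairs and 2 higher in both. Of all 9198 tested genes, 2050 were lower in both pairs and 2500 higher. Interferons act through cell surface receptors and transcription factors, IRF9 among them, that bind a short DNA element, the interferon-stimulated response element. Of 50 listed genes, 24 passed the filter, with 13 separated lower (54.2%) and 1, Ifi27l2a, higher (4.17%), and a median difference of -0.45. Of all genes, 12.6% were separated lower and 14.9% higher. The list median was -0.42 for KRG over control and -0.45 for BPA plus KRG over BPA. With total count scaling 13 were lower and 0 higher. The element was searched in RefSeq promoters (build GRCm38.p6, 250 bases before to 50 after each gene's start) as GAAANNGAAA on both strands, where a run of GAAA repeats can hold overlapping matches. Of the 24 measured genes, 19 had a promoter in the table and 12 of these (63.2%) held a match. Of the 13 separated lower, 10 had one and 5 of these (50%) held a match, a smaller share than in the measured list. A match was found in 1079 of all 27025 promoters (3.99%), and in 251 of the 7020 of genes measured in uterus (3.58%). Below are the 250 bases before the start for 3 of the separated genes, shown because they carry the element, with the matches in capitals (Ifit3 at chr19:34583279-34583528, plus strand, Isg15 at chr4:156200819-156201068, minus strand, and Gbp7 at chr3:142530086-142530335, plus strand).
Ifit3: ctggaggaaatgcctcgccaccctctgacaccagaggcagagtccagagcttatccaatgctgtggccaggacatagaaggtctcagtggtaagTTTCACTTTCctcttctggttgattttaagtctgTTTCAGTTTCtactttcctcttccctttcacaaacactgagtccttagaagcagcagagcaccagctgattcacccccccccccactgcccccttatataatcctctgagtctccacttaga
Isg15: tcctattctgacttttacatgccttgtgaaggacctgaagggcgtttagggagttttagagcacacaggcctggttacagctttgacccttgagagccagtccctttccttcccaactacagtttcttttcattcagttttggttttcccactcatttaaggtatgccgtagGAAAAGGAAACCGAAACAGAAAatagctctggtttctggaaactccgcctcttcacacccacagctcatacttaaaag
Gbp7: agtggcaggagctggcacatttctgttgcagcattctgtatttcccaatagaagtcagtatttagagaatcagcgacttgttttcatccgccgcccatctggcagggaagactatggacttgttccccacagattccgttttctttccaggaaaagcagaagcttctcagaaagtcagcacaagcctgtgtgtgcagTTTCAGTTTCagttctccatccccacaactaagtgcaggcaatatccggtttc
Ifit3 held 2 matches, between 156 and 113 bases before the start, Isg15 held 3 overlapping ones between 78 and 57 bases before it, and Gbp7 held 1. A match is a description of these letters and not a measured binding site.

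Ifit3 had the widest gap of all genes on the lower side. This RNA-binding antiviral protein stood at 9.79 CPM in KRG and 11.9 CPM in BPA plus KRG, against 32.6 CPM in control and 34.2 CPM in BPA. Each side was tight and the sides lay far apart. The edgeR log2 fold change was -1.63 (SE 0.23, adjusted p = 0.87), and the DESeq2 adjusted p was 0.0241. Ifit3 and Ifit3b are near copies that may share reads, and Ifit3b stood at 7.98 and 12.7 CPM against 14.2 and 16.8 CPM. Isg15, the ubiquitin-like modifier, stood at 26.7 and 35.3 CPM with ginseng and 48.0 and 64.0 CPM without (edgeR log2 fold change -0.85, SE 0.21, adjusted p = 0.998). Iigp1, a GTPase that attacks the vacuoles of parasites, stood at 21.0 and 13.1 CPM against 27.8 and 40.7 CPM.

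Of the 24 measured members 10 overlapped, among them Bst2 and Ddx58, whose means were slightly higher with ginseng. The members named next were chosen after their values were seen. Irf9, the transcription factor named above, stood at 40.6 and 38.4 CPM with ginseng, against 59.1 and 72.6 CPM without. Gbp7, a guanylate-binding protein, stood at 33.6 and 39.3 CPM against 48.8 and 56.9 CPM, and Parp14, an ADP-ribosyltransferase, at 23.0 and 27.5 CPM against 34.8 and 44.3 CPM. Rsad2, viperin, overlapped, at 8.88 and 26.5 CPM against 23.5 and 29.8 CPM. The summed level of the whole list was 668 CPM in KRG, 755 CPM in BPA plus KRG, 812 CPM in control and 1110.5 CPM in BPA. Macrophage markers, the summed level of which was 626, 722, 639 and 657 CPM in the same order, had 0 of 16 measured members separated higher and 1 lower (median 0.07).

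**Figure D3:**
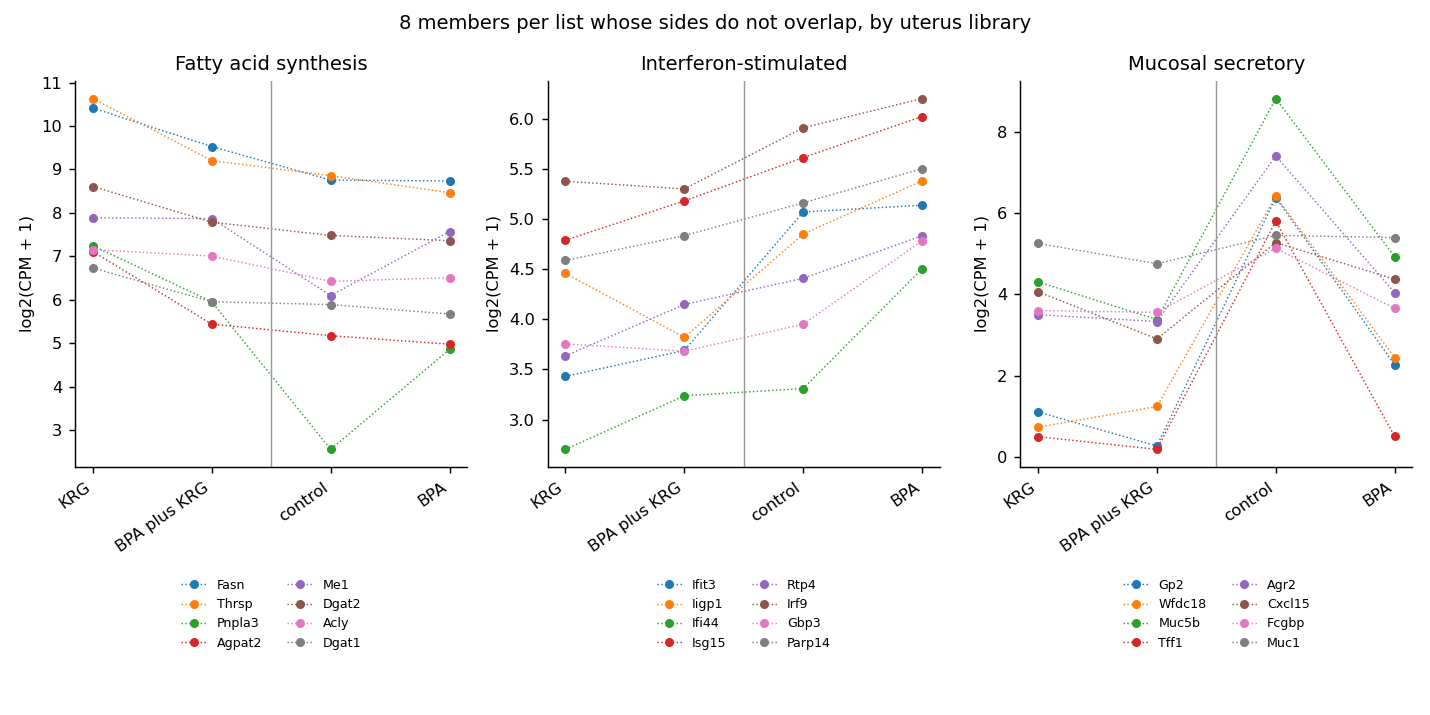
Level as log2(CPM + 1) in the 4 uterus libraries, with the libraries with ginseng left of the grey line, for 8 separated members of 3 gene lists. The members drawn were picked from the separated ones, so their sides do not overlap by that choice, and overlapping members are not drawn. Among those drawn, fatty acid synthesis genes peak in KRG, interferon-stimulated genes are lower with ginseng by the choice, and most mucosal genes peak in control alone. Dotted lines join the values of 1 gene and stand for no order.

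Some receptors of monocytes and some MHC class II genes of antigen presentation were lower as well. Ccr2, the receptor that brings monocytes out of the blood, stood at 32.7 and 19.5 CPM with ginseng, against 90.2 and 51.7 CPM without (edgeR log2 fold change -1.43, SE 0.21, adjusted p = 0.87, DESeq2 adjusted p = 0.011). Cx3cr1, the fractalkine receptor of patrolling monocytes and tissue macrophages, stood at 17.2 and 21.0 CPM against 52.2 and 42.4 CPM. The MHC class II chain H2-Aa stood at 64.7 and 68.9 CPM against 130 and 100.4 CPM. Its partner H2-Ab1 stood at 40.1 and 26.3 CPM against 61.4 and 41.6 CPM. Of 14 measured chemokines and their receptors, 5 were separated lower (35.7%) and 2, Ccl27a and Ccl9, higher (14.3%), with a median of -0.18. Of 9 measured MHC genes, 2 were lower (22.2%) and 0 higher (median -0.25), and 3 had higher means with ginseng. H2-K1, H2-DMb1, H2-Eb1 and B2m had opposite directions in the 2 pairs. Of all genes, 12.6% were separated lower and 14.9% higher.

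Wnt and hedgehog signalling genes encode signals that pass between stroma and epithelium in the uterus. Of 18 measured, 9 were lower in both pairs and 0 higher in both, beside 2050 and 2500 of all 9198 tested genes. Of 29 listed, 18 passed the filter, with 0 separated higher and 8 lower (44.4%), beside 14.9% and 12.6% of all genes. The median difference was -0.55, and the median was -0.44 in both pairs. Wnt4, Wnt7b, Sfrp1 and Shh had means above those without ginseng. With total count scaling 0 were higher and 9 lower. Gli1, the hedgehog-induced transcription factor of the stroma, stood at 29.5 and 34.3 CPM with ginseng, against 78.9 and 51.1 CPM without (edgeR log2 fold change -1.0, SE 0.28, adjusted p = 0.998). The ligand Wnt16 stood at 13.7 and 7.96 CPM against 24.2 and 16.6 CPM. The other separated members were secreted modulators of Wnt. Among them, Wif1, which sequesters Wnt ligands, stood at 3.37 and 11.4 CPM against 26.1 and 14.3 CPM, and Dkk2, a ligand of the LRP coreceptors, at 43.2 and 26.3 CPM against 59.9 and 70.0 CPM. Sfrp2, Frzb, Rspo1 and Dkk3 complete the 8. Wnt6, a ligand outside the list, was among the genes with the widest gap, at 9.21 and 6.26 CPM with ginseng and 20.5 and 22.1 CPM without. The epithelial ligand Wnt7a overlapped, at 25.8 and 18.0 CPM against 49.3 and 17.8 CPM.

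Several stromal identity genes were lower too. Of 18 stromal fibroblast markers, 7 were separated lower (38.9%) and 1, Col3a1, higher (5.56%), beside 12.6% and 14.9% of all genes (median -0.15). Pdgfra, the growth factor receptor that marks fibroblasts, stood at 54.5 and 40.1 CPM with ginseng, against 70.3 and 92.7 CPM without, and Hoxa11, given above, was lower in both libraries. Foxl2, a forkhead factor of uterine stroma and ovary, stood at 8.39 and 8.23 CPM with ginseng and 19.7 and 18.8 CPM without. Its values nearly coincided within each side, and its edgeR log2 fold change was -1.21 (SE 0.26, adjusted p = 0.998). Map2, a microtubule-binding protein best known from neurons, stood at 30.8 and 27.3 CPM against 67.8 and 67.1 CPM (edgeR log2 fold change -1.22, SE 0.21, adjusted p = 0.998). Rorb, an orphan nuclear receptor, stood at 6.42 and 6.19 CPM against 13.9 and 14.2 CPM. The summed level of the fibroblast markers was 7238, 6626, 6749 and 8276 CPM in KRG, BPA plus KRG, control and BPA, and the part of the amount of stroma in these genes was not tested.

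The 6 largest differences among genes separated lower were those of Itln1, which is outside the mucosal list, and of its members Gp2, Wfdc18, Muc5b, Tff1 and Agr2, all highest in control. Gp2, Wfdc18 and Tff1 passed the filter through control alone, so their place in this ranking is partly set by the filter. Itln1 (chr1:171518122-171535294), intelectin, a lectin that binds microbial sugars, stood at 55.1 CPM in KRG and 17.5 CPM in BPA plus KRG, against 1605 CPM in control and 137 CPM in BPA. The sides did not overlap, but control stood far above BPA. The edgeR log2 fold change was -3.93 (SE 0.52, adjusted p = 0.87), and the DESeq2 adjusted p was 3.92e-20. Gp2, a membrane glycoprotein that binds bacterial fimbriae, stood at 1.15 and 0.204 CPM against 82.2 and 3.81 CPM (edgeR log2 fold change -5.72, SE 0.49, adjusted p = 0.238). The gel-forming mucin Muc5b stood at 18.8 and 9.38 CPM against 448 and 29.3 CPM, and its edgeR log2 fold change of -3.15 had an SE of 0.76 (adjusted p = 0.998).

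Of 32 listed mucosal genes, 16 passed the filter, with 8 separated lower and 0 higher. The median difference was -0.98 over all 4 libraries and -0.23 with control left out, when 8 were lower and 0 higher. Gp2, Wfdc18, Tff1 and Slpi were below 10 CPM in the other 3 libraries and passed the filter through control alone, so this count and median are partly set by the filter and support nothing. Tff1, a trefoil peptide of mucus, shows how narrow such a separation can be, with 0.411 and 0.136 CPM with ginseng against 54.7 CPM in control and 0.416 CPM in BPA. Agr2, which folds mucins, stood at 10.3 and 9.04 CPM against 168 and 15.4 CPM. Wfdc2, the most abundant member, overlapped, at 1519 and 1752 CPM with ginseng and 2456 and 1517 CPM without. Markers of luminal and glandular epithelium had 1 of 19 separated lower (5.26%) and 0 higher (median -0.16), both under the shares of all genes. They summed to 2358 CPM in KRG, 5054 CPM in BPA plus KRG, 3056 CPM in control and 3960.0 CPM in BPA. The part of the epithelium's amount in the mucosal genes was not tested.

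**Figure D4:**
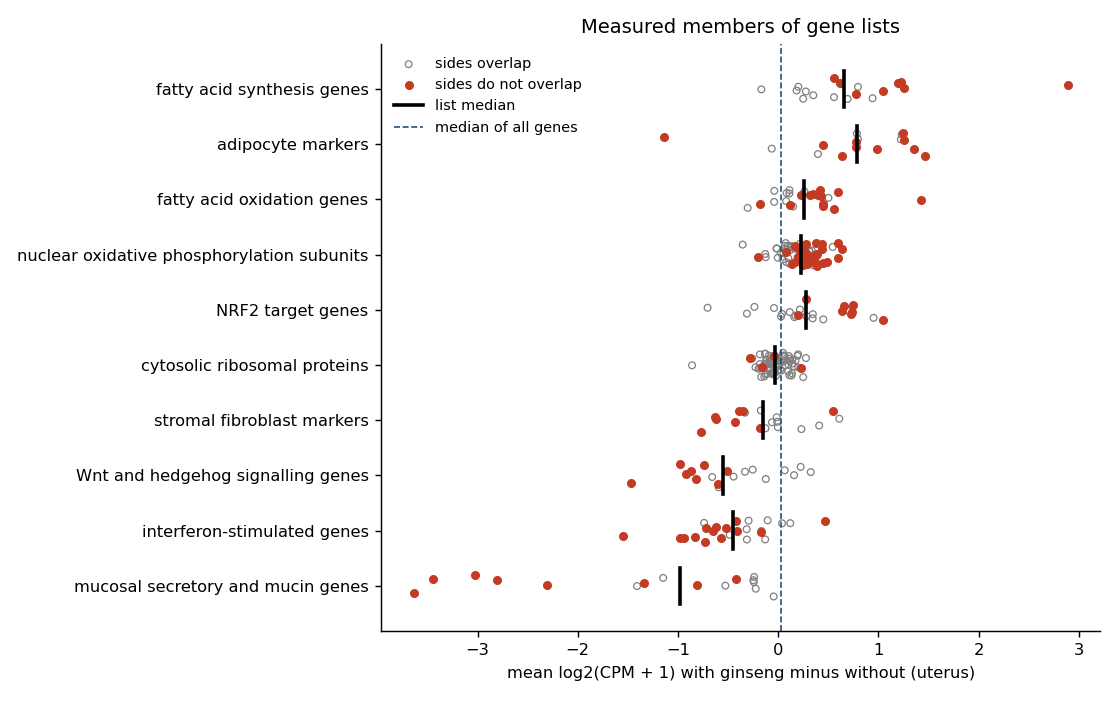
Difference of mean log2(CPM + 1), uterus with ginseng minus without, for each measured member of 10 gene lists. Filled points are separated genes, bars are list medians, and the dashed line is the median of all genes (0.03). Lipid and mitochondrial lists lie right of the line with medians of 0.23 to 0.79. The Wnt and interferon lists lie left of it with medians of -0.55 and -0.45. The mucosal list also lies left, but its median of -0.98 is partly set by the filter, which some members passed through control alone.

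The steroid receptors Esr1 and Pgr overlapped between the sides. The estrogen receptor gene Esr1 stood at 159.8 and 89.0 CPM with ginseng and 190 and 145 CPM without. The progesterone receptor Pgr stood at 84.3 and 49.6 CPM against 119 and 71.5 CPM. Each was lower with ginseng within its own pair, by 0.25 and 0.70 on the log2 scale for Esr1 and by 0.49 and 0.52 for Pgr. Ltf, lactotransferrin, stood at 226 and 82.6 CPM with ginseng and 793 and 116 CPM without, and Greb1, an estrogen receptor cofactor, at 30.1 and 8.09 CPM against 34.1 and 15.03 CPM. Of 22 measured estrogen-induced genes, 3 (13.6%) were separated lower and 2 (9.09%) higher (median -0.32), beside 12.6% and 14.9% of all genes. In both pairs 12 of the 22 genes were lower and 3 higher, beside 2050 lower and 2500 higher of all 9198 tested genes. Ramp3, a partner of the calcitonin receptor-like receptor, was the most different of these, at 28.1 and 14.8 CPM against 84.2 and 31.9 CPM (edgeR log2 fold change -1.35, SE 0.24, adjusted p = 0.998, DESeq2 adjusted p = 0.043).

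Liver of the same treatments was set beside the uterus genes, with the same rule. Of the 2528 separated uterus genes (27.5% of those tested), 1633 were measured in liver, where 156 were separated on the same side and 280 on the opposite side, beside 12.1% higher and 15.4% lower of all 6705 liver genes. Of the 79 uterus genes with means at least 2-fold apart (0.859%), 23 were measured in liver, with 5 on the same side and 7 on the opposite side. The liver shares are by direction and not by agreement with uterus. They are therefore no direct background for these counts, and whether the counts exceed one was not tested. Cwc22 and Ccl27a were at least 2-fold apart on the same side in both tissues. Cwc22 (chr2:77881159-77946375), a splicing factor, stood at 54.3 and 126 CPM with ginseng, against 164 and 377 CPM without, in uterus, and its log2 ratio was -1.57 in both uterus pairs. In liver it stood at 9.89 and 9.38 CPM with ginseng and 23.7 and 31.2 CPM without. Its edgeR adjusted p in uterus was 0.87, and its DESeq2 adjusted p was 3.01e-05. The difference of the ginseng terms between uterus and liver was tested in 1 model of all 8 libraries with edgeR, which treats them as independent. No label says if an animal gave both tissues. It passed an adjusted p of 0.05 in 0 of 8393 genes, and in 479 before adjustment. DESeq2 gave 17 genes with a higher and 1 with a lower term in uterus, and 5207 genes no adjusted p.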

How the data were processed

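Gene expression was measured by QuantSeq 3' end sequencing from 500 ng of total RNA per library, per the labels' protocols. The values the authors deposited are raw counts of reads, in whole numbers, for 23282 gene rows in each library. Repeated symbols, 44 in all, were treated as separate genes. Per the submitters' processing notes, Bowtie2, edgeR and the mm10 build were used, and the counter and its rules for strand and for several matches were not given in the sources used here. Near copies (Ifit3 and Ifit3b, Aldh1a7, the Il11ra2 cluster, H2 genes) and overlapping genes are therefore uncertain.

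With edgeR 4.0.16 in R 4.3.3, counts of the 4 uterus libraries were scaled by trimmed means of M values. The ribosomal RNA precursor Rn45s, 8.62% to 11.3% of each library, stayed in the totals. Genes whose mean reached 10 CPM were used, and differences are of log2(CPM + 1). The main test was edgeR's quasi-likelihood test of KRG with BPA as an additive term and 1 residual degree of freedom, so any interaction counts as error. Each SE printed with an edgeR log2 fold change was worked back from that test. It is the size of the log2 fold change over the square root of the F statistic, and not a fitted standard error. DESeq2 1.42.0 was an alternative and gave 179 genes no adjusted p. Scripts were tested on simulated data. Coordinates are from GENCODE M21, on the same build as mm10.

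The comparison, the gene lists and the rule for named genes were chosen with earlier results of these data known. Named genes were the 15 higher and 15 lower with the widest gap, the 4 separated members of each list with the largest difference, the 5 in each direction with the largest smaller ratio over both pairs, and always Esr1, Pgr, Ltf, Greb1, Upk3a, Acta2 and Col1a1. Part of these is described, and some results are not reported here. Other genes, list members given as examples of overlap included, were chosen after their values were seen. With no replicate label, p-values measure only the spread between these libraries, which may be technical. Alternatives were DESeq2 size factors, total counts, filters of 1 CPM and none, pseudocounts of 0.25 and 5 CPM, no BPA term, and leaving out each library.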

Additional observations from a re-analysis of the deposited data

Results flagged for a closer look

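Urothelial and squamous markers had opposite ratios in the 2 ginseng pairs. The median log2 ratio of 10 measured urothelial markers was -1.31 for KRG over control and 0.72 for BPA plus KRG over BPA. Of the squamous and cornified epithelium markers, 14 were measured, and their medians were -0.60 and 0.61 in the same order. Upk3a, a uroplakin of the bladder lining, stood at 7.57 CPM in KRG, 2705 CPM in BPA plus KRG, 66.3 CPM in control and 1216 CPM in BPA, with log2 ratios of -2.97 and 1.15. Each pair has 1 library a side, and the difference between the pairs was not tested.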

How the results depend on the processing

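No paired analysis was possible because each treatment has 1 library and the groups share fewer than 2 replicate numbers, so no replicate block could be fitted. BPA is a term of the edgeR test. DESeq2 size factors changed no count by over 1.5 times. Total count scaling gave 751 separated genes higher, 2035 lower and 53 lower by at least 2-fold. A filter of 1 CPM gave 1984 separated lower, with 86 and 84 at least 2-fold higher and lower, and no filter gave 2381 and 2649, with 86 and 85. KRG over control then had 491 genes higher and 281 lower (no filter 534 and 327), BPA plus KRG over BPA 284 and 348 (326 and 364), both pairs 14 and 34 (14 and 34), and opposite pairs 35 (37). Those filters test more genes. A pseudocount of 5 CPM gave 61 lower for KRG over control, 95 lower for BPA plus KRG over BPA, 8 lower in both and 8 opposite, and 0.25 CPM gave 12 higher in both and 34 opposite. Asking only that both pairs share a direction gave 2500 higher and 2050.0 lower. Left-out libraries, which make separation easier by construction, gave 2384 to 3598 separated higher, 2416 to 3382 lower, 95 to 305 at least 2-fold higher and 57 to 219 lower. edgeR called 1 gene higher and 2 lower with no filter, and 0 without the BPA term (189 at an unadjusted p under 0.05) and with each library left out (40 to 675 at an unadjusted p under 0.05). DESeq2 called 13 and 10, and 17 and 1 for the difference between tissues. The cause was not tested. Of interferon-stimulated genes, 27 and 28 were separated lower with filters of 1 CPM and none. With each library left out, 13 to 22 were lower (22 without control), of mucosal genes 8 to 15 (15 without KRG, 14 without BPA) and of Wnt and hedgehog genes 9 to 13 (13 without KRG or without BPA plus KRG). Of fatty acid synthesis genes 10 to 13 were then higher (13 without KRG or without BPA), of adipocyte markers 9 to 15 and of oxidative phosphorylation subunits 38 to 58 (15 and 58 without BPA plus KRG). Among the lists described in the report, medians opposite in sign to those over all 4 libraries were 0.03 for chemokines, -0.01 for glycolysis and hypoxia, 0.08 for ribosomal proteins and -0.12 for matrix genes without control, 0.19 for luminal and glandular epithelium and -0.12 for matrix genes without KRG, 0.24 for ribosomal proteins, 0.05 for MHC genes, -0.10 for macrophage and -0.96 for skeletal muscle markers without BPA plus KRG, -0.01 for macrophage markers without BPA, and -0.03 for macrophage markers with total count scaling. Of 1550 values of single genes under an alternative, 18 changed sign and 23 came past the threshold. Depth sets the counting error only, and each treatment has 1 library.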

Other observations

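A cluster of cytokine receptor and chemokine genes on chromosome 4 was chosen after its values were seen. In uterus Ccl27a, a skin-homing chemokine, stood at 25.0 CPM in KRG and 194 CPM in BPA plus KRG, against 22.1 CPM in control and 10.2 CPM in BPA. Il11ra2, a copy of the interleukin 11 receptor gene, stood at 426 and 9.72 CPM with ginseng and 318 and 170.4 CPM without, and Ccl27b at 157 and 3.06 CPM against 115 and 57.2 CPM. In liver Ccl27a stood at 46.5 and 53.0 CPM with ginseng and 10.4 and 10.5 CPM without, and Il11ra2 at 91.4 and 84.6 CPM against 204 and 186 CPM. These copies may share reads.

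Among MHC genes, also chosen after their values were seen, H2-K1 stood at 81.7 and 238 CPM with ginseng and 280 and 82.0 CPM without, and H2-DMb1 at 8.47 and 54.8 CPM against 90.0 and 7.27 CPM. Both were high in BPA plus KRG and control and low in KRG and BPA. Alb, the liver's serum albumin, was read in uterus at 434 and 2.11 CPM with ginseng and 234 and 4.57 CPM without.

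Erythroid markers summed to 5579 CPM in KRG, 1184 CPM in BPA plus KRG, 6850 CPM in control and 2949 CPM in BPA, and neutrophil markers to 1660, 341, 1180.1 and 387 CPM in the same order. Both sums were higher in the libraries without BPA on either side.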
